A study of Mus musculus with 15 samples.

Results

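Liver carrying a mutant β-catenin together with a mutant NRF2 was compared with wild-type liver by polyA RNA sequencing. The comparison used 6 of the series' 15 libraries, all those labelled with its 2 groups, and every gene with enough counts to test, 14098 of 24411 gene symbols. WT was unmodified liver of the FVB strain (3 libraries). CTNNB1_NFE2L2 carried S45Y-CTNNB1 and G31A-NFE2L2 (3 libraries), which are β-catenin with serine 45 replaced by tyrosine and NRF2 with glycine 31 replaced by alanine. Direct tests also used CTNNB1_NFE2L2_MET, which carried both mutants and human MET, CTNNB1_MET (S45Y-CTNNB1 with human MET) and NFE2L2_MET (G31A-NFE2L2 with human MET), 3 libraries each. Every library came from liver frozen fresh, and all mice were male FVB/NJ. The sources used here state neither age, promoter, vector, time after delivery nor the number of animals. Nothing says that the libraries of a group came from separate animals, so p-values measure the spread between these libraries, which may be technical in part.

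β-catenin is the effector of canonical Wnt signalling. Phosphorylation near serine 45 marks it for destruction, and stable β-catenin enters the nucleus and works with TCF/LEF factors at target genes. In normal liver its activity is highest in hepatocytes around the central vein, where it maintains glutamine synthesis and several cytochromes P450, while hepatocytes around the portal vein run the urea cycle, amino acid breakdown and gluconeogenesis. NRF2 is held in the cytoplasm and degraded through KEAP1, which binds a motif that includes glycine 31. Free NRF2 pairs with small MAF proteins on antioxidant response elements (ARE) and drives glutathione synthesis, detoxification and NADPH supply. MET is a receptor tyrosine kinase that hepatocyte growth factor activates.

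Promoter sequences of some genes that rose in CTNNB1_NFE2L2 hold the letters each factor is known to bind. The ARE core was searched as TGACNNNGC and the TCF/LEF motif as CTTTGAT or CTTTGAA, on both strands, in RefSeq windows (GRCm38.p6, the mm10 assembly) from 250 bases before to 50 bases after each annotated start. The TCF/LEF patterns differ only in their last letter, and neither contains the ARE core. Of 55 genes that rose among the glutathione, glutathione S-transferase, redox, NADPH and efflux lists, 48 matched the promoter table, and 13 of these, 27.1%, held an ARE core in at least 1 window, beside 14.0% of all 27025 genes in the table. Of 14 genes that rose in the 2 Wnt target lists, 8 matched, and 2 of these, 25.0%, held a TCF/LEF motif, beside 9.88% of all genes. A gene with more windows has more places for a match. Counted by window, 2 of 14 windows of these genes (14.3%) held a TCF/LEF motif, beside 8.65% of all 32851. For the ARE core it was 17 of 68 windows (25%), beside 12.4%. Among all tested members of the same lists, risen or not, 14 of 59 matched genes (23.7%) held an ARE core and 2 of 10 (20%) a TCF/LEF motif. The windows below are those of the 3 genes with the largest rises that held an ARE core and of the 2 that held a TCF/LEF motif, each 5′ to 3′ on the gene's strand with the match in capitals.
Abcc4 (chr14:118706170-118706469, minus strand, ARE core on the opposite strand at bases -25 to -17 from the start): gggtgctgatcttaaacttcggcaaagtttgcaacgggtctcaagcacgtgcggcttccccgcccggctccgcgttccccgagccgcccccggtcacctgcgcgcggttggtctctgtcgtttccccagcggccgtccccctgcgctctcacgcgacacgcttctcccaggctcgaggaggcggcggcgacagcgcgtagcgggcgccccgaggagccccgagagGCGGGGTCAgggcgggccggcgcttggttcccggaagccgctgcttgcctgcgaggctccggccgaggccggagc
Ggt1 (chr10:75563882-75564181, plus strand, ARE core at bases 41 to 49, 1 of 3 windows of this gene that held the motif): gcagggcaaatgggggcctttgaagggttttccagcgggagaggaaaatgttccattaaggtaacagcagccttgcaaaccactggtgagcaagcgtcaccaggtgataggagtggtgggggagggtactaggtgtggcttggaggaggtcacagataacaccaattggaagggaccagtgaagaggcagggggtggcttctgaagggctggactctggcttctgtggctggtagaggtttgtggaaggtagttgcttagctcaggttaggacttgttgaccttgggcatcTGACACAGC
Srxn1 (chr2:152105274-152105573, plus strand, ARE core on the opposite strand at bases 28 to 36): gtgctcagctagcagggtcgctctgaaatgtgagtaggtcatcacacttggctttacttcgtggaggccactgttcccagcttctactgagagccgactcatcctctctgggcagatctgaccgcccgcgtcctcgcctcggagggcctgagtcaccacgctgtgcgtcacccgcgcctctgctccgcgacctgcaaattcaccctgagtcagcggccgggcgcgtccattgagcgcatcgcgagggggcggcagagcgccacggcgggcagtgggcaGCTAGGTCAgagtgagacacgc
Sp5 (chr2:70474673-70474972, plus strand, TCF/LEF motif at bases -104 to -98): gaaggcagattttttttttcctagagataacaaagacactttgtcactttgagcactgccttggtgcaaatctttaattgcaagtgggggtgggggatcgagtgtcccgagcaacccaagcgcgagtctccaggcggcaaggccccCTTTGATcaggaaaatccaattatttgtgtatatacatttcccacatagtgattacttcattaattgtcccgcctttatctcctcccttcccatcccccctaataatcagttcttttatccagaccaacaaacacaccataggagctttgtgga
Tnfrsf19 (chr14:61037938-61038237, minus strand, TCF/LEF motif on the opposite strand at bases -202 to -196): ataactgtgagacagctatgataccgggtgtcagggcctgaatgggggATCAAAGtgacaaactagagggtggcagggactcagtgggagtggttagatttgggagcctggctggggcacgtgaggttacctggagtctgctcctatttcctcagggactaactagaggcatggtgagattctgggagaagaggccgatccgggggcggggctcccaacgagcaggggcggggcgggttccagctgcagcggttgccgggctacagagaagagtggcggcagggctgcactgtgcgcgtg
A match is a description of the letters, not a measured binding site. Variants of either motif outside the searched letters were neither counted nor marked, and the printed windows may hold some.

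Gene counts summed to 14084343 to 17386898 in the WT libraries and 16936108 to 18551460 in the CTNNB1_NFE2L2 libraries. Levels below are CPM, counts scaled to TMM-adjusted library totals, given for replicates 1, 2 and 3 in order, and changes are log2 fold changes ± standard error from edgeR's quasi-likelihood test, called at a Benjamini-Hochberg adjusted p under 0.05. The liver label was checked with albumin (Alb), the main product of hepatocytes, whose lowest level in any of the 6 libraries was 14265 CPM. Unmapped reads separated the groups, at 19.8 to 25.9% in WT and 9.71 to 11.8% in CTNNB1_NFE2L2. With that share as a term in the fit over all 15 libraries, 426 genes were higher and 182 lower, of which 404 and 170 were also called without it. Of 264 calls among the named genes, 76 were kept with the term. Counts under it are given with the main gene groups, and the share and the comparison cannot be told apart in these 6 libraries. WT replicate 2 stood apart from the other WT libraries, with a chi-square per gene of 98.9 against replicate 1 and 115.6 against replicate 3, whereas replicates 1 and 3 differed by 39.5 and the pairs of CTNNB1_NFE2L2 by 24.3 to 28.6.

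The combined model differed widely from WT. Of the 14098 genes tested, 6867 were called (48.7%), 3456 higher (24.5%) and 3411 lower (24.2%). A change of 2-fold or more was called for 2860 genes (20.3%), 1734 of them higher (12.3%) and 1126 lower (7.99%), and a change of 4-fold or more for 806 higher (5.72%) and 330 lower genes (2.34%). The 3 libraries of 1 group all lay beyond the other 3 for 7617 genes (54.0%), above WT for 3916 (27.8%) and below it for 3701 (26.3%). Total-count scaling moved the all-gene median from -0.0079 to 0.175 on the log2 scale and gave 4507 genes higher and 2127 lower, so 67.9% of its calls were higher against 50.3% under TMM. The members' counts below are to be read against these shares.

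**Figure D1:**
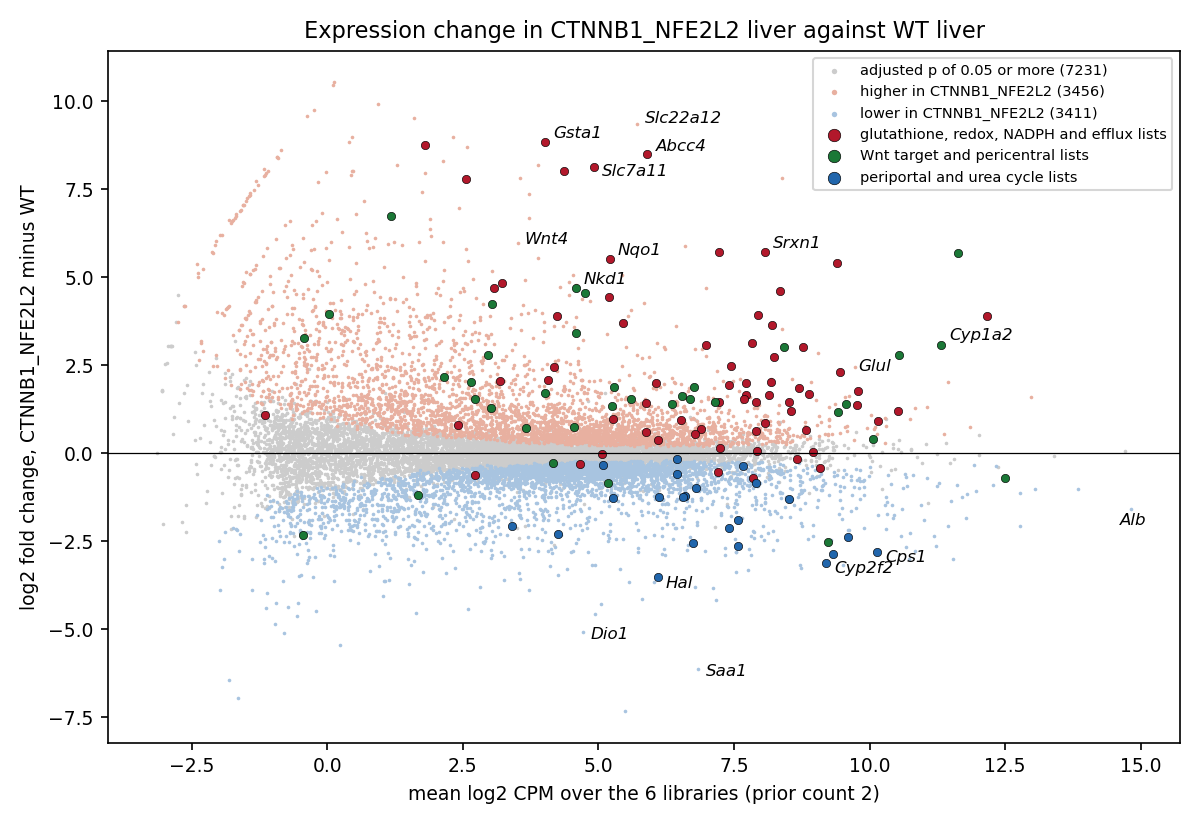
Log2 fold change of CTNNB1_NFE2L2 against WT (vertical axis) against the mean log2 CPM of the 6 libraries (horizontal axis), 1 point per tested gene, with 3456 higher genes in pale red and 3411 lower genes in pale blue. Members of the glutathione, redox, NADPH and efflux lists (dark red) and of the Wnt target and pericentral lists (green) lie mostly above 0, while periportal and urea cycle genes (dark blue) all lie below it.

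Slc22a12, Abcc12, Slc39a2, Maoa, Wnt4, Cyp2a4 and Cyp2a5 were among the 15 largest rises of genes at a mean log2 CPM of 3 or more. Slc22a12, a urate transporter better known from kidney (chromosome 19, 6535854 to 6543070), stood at 3.24, 0.653 and 2.76 CPM in WT and 1411, 1494 and 1328 CPM in CTNNB1_NFE2L2. The groups did not overlap, and the gene rose 647-fold (9.34 ± 0.54, adjusted p = 3.03e-08). Maoa, which encodes the amine-degrading enzyme monoamine oxidase A, rose from 10.3, 12.8 and 14.9 CPM to 711, 868 and 676 CPM (5.89 ± 0.24). Abcc12, a member of the ABC transporter family, went from 1.22, 1.36 and 1.15 CPM to 123.3, 126.1 and 134 CPM (6.67 ± 0.23). All 6 libraries kept to their groups for these genes, with no WT library above 15 CPM. Slc39a2, a zinc importer, rose from 2.11 ± 0.388 (SD, n = 3) to 99.9 ± 15.7 CPM (5.56 ± 0.20). Wnt4, which encodes a Wnt ligand (chromosome 4, 137277635 to 137299501), was nearly absent from WT at 1.80, 1.07 and 1.48 CPM and reached 129.4, 93.2 and 50.4 CPM in CTNNB1_NFE2L2 (5.98 ± 0.46, adjusted p = 5.07e-07). The lowest model library still lay far above the highest WT library. Cyp2a4 and Cyp2a5 encode near-identical steroid and coumarin hydroxylases, whose reads may be shared between them. Cyp2a5 rose from 737, 225 and 431 CPM to 21887, 25177 and 25202 CPM (5.70 ± 0.39), and Cyp2a4 from 11.6, 11.2 and 54.1 CPM to 4707, 6502 and 6184 CPM (7.82 ± 0.61, 8.99 without WT replicate 3). With the term for the unmapped share, all of the genes named in this paragraph stayed called except Wnt4, at 5.47.

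Dio1, the deiodinase that activates thyroid hormone, fell from 153, 166 and 160.3 CPM to 5.56, 1.88 and 6.84 CPM (-5.07 ± 0.63, adjusted p = 5.21e-05). Slc22a7, an organic anion transporter, fell from 209.5, 148 and 129.4 CPM to 8.41, 2.35 and 9.78 CPM (-4.57 ± 0.51). Replicate 2 of CTNNB1_NFE2L2 was the lowest library for both, and the groups did not overlap. Paqr9, a membrane receptor family member, fell by 3.66 ± 0.38, and Peg3, an imprinted zinc finger gene, by 3.40 ± 0.25 on the log2 scale. Capn8, a calpain protease, changed by -3.60 ± 0.54, and the carboxylesterase Ces1e by -3.80 ± 0.57. Mug-ps1, a murinoglobulin pseudogene, changed by -4.29 ± 0.58, or -4.99 without CTNNB1_NFE2L2 replicate 1. Mup7 (-4.17 ± 0.78) and Mup12 (-3.47 ± 0.54) belong to the major urinary proteins, pheromone carriers of male liver whose close copies share reads. Under the unmapped-share term, Paqr9 and Peg3 stayed called and the other genes of this paragraph did not.

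The mouse genes that correspond to the introduced sequences changed little, and these counts cannot tell reads of a transgene from those of the mouse gene. Ctnnb1 stood at 243, 259 and 295 CPM in WT and 388, 358 and 352 CPM in CTNNB1_NFE2L2, with no overlap, and rose 1.38-fold (0.46 ± 0.11, adjusted p = 0.00363). Nfe2l2 stood at 56.7, 39.2 and 41.2 CPM and 88.1, 49.2 and 48.9 CPM, where the groups overlapped, and did not pass (0.44 ± 0.20, adjusted p = 0.0767). It was called higher without CTNNB1_NFE2L2 replicate 2 (0.59), its replicate 3 (0.59) or WT replicate 1 (0.63) and under total-count scaling. Met, which is not among the introduced genes of this model, did not pass either (0.12 ± 0.15, adjusted p = 0.553). Of 17 genes, these mouse counterparts and their regulators in the destruction complex, the KEAP1 system and the ligand of MET, 4 rose and 5 fell. That is 52.9% called, near the 48.7% of all genes tested, and Ctnnb1 was among the rises. The small MAF genes Mafg (0.55 ± 0.11) and Mafk (0.85 ± 0.12), whose products pair with NRF2, rose. Keap1 passed narrowly (0.25 ± 0.10, adjusted p = 0.0392), and the call was lost without any 1 of CTNNB1_NFE2L2 replicate 2 (0.21), replicate 3 (0.26) or WT replicates 1 (0.27), 2 (0.26) and 3 (0.24). Apc, a scaffold of the destruction complex, fell by 0.53 ± 0.10, and Hgf, the ligand of MET, by 1.54 ± 0.28 on the log2 scale. The falls in this group rested on single libraries in part, with 2 without CTNNB1_NFE2L2 replicate 2, 3 without its replicate 3 and 2 without WT replicate 2. Total-count scaling gave 7 higher and 2 lower, and under the unmapped-share term 0 were higher and 0 lower.

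Genes of glutathione synthesis and recycling rose together. Of 10 members 9 rose and 1 did not pass, with a list median of 2.16 on the log2 scale beside -0.0079 for all genes tested. With the unmapped share fitted, 7 were higher and 0 lower. Slc7a11, the cystine importer that limits glutathione synthesis (chromosome 3, 50364936 to 50499087), stood at 1.94, 0.593 and 3.27 CPM in WT and 523, 592 and 490.5 CPM in CTNNB1_NFE2L2. No WT library reached 4 CPM, and the rise was 8.12 ± 0.52 (adjusted p = 9.36e-08), or 8.77 without WT replicate 3. Gclc and Gclm encode the catalytic and modifier subunits of the rate-limiting ligase. Gclc went from 300.3, 229.5 and 428 CPM to 1569.9, 1719 and 1457 CPM (2.31 ± 0.22) and Gclm from 131, 163 and 143 CPM to 620.2, 606 and 543 CPM (2.02 ± 0.14). Gss, the synthetase of the last step, rose from 104.5, 103.4 and 106.8 CPM to 414, 420.3 and 428 CPM (2.0 ± 0.11), with little spread within either group. Gsr, which regenerates reduced glutathione with NADPH, rose 5.55-fold (2.47 ± 0.16). Ggt1, the cell-surface enzyme that breaks glutathione down and whose promoter is printed above, stood at 0.288, 0.237 and 0.513 CPM and 63.8, 94.7 and 76.2 CPM (7.79 ± 0.40). Gpx4, the peroxidase that protects membrane lipids, rose by 1.84 ± 0.12. Gpx2, a peroxidase of gut epithelium, was at 0, 0.0593 and 0.321 CPM in WT and at 67.0, 52.8 and 58.6 CPM in CTNNB1_NFE2L2 (8.77 ± 0.43). Nearly all of its WT counts were in replicate 3, so that no fold is given without that library. Glrx, a glutaredoxin, was the member that did not pass (0.38 ± 0.16, adjusted p = 0.0632).

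Glutathione S-transferases, which couple glutathione to reactive compounds, formed an even larger group, with 16 of 19 members higher, 2 lower, 1 not passing and a median of 1.47. In the fit with the unmapped share, 12 were higher and 0 lower. Their summed level was 3075 to 6179 CPM in WT and 31981 to 36685 CPM in CTNNB1_NFE2L2. Gsta1 stood at 1.22, 0.119 and 1.09 CPM in WT and 321, 404 and 369.5 CPM in CTNNB1_NFE2L2 (8.85 ± 0.42, adjusted p = 4.71e-09). Gsta2 rose from 42.6, 4.86 and 25.3 CPM to 1187, 1371 and 1282 CPM (5.73 ± 0.64, 6.41 without WT replicate 1). WT replicate 2 was the lowest WT library for both and for Gstm1 to Gstm3. The mu-class genes Gstm1 (3.90 ± 0.30), Gstm2 (4.62 ± 0.18), Gstm3 (5.41 ± 0.40) and Gstm4 (3.94 ± 0.20) rose, as did Gstp2 of the pi class (4.43 ± 0.25). Gstm1 reached 18366, 20009 and 16684 CPM from 1662, 639 and 1383 CPM, and Gstm3 reached 4881, 5061 and 4152 CPM from 143, 44.6 and 143 CPM. Copies within the Gsta and Gstm families resemble each other closely, so their separate values are uncertain. Gstk1 (-0.53 ± 0.16), of mitochondria and peroxisomes, and Gstz1 (-0.43 ± 0.15), which acts in tyrosine breakdown, fell, and neither was called without WT replicate 1 or under total-count scaling. One of them was lost without CTNNB1_NFE2L2 replicate 1 or 2 or WT replicate 3.

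Thioredoxin, quinone and carbonyl reductases rose in 15 of 18 members, with 1 lower and 2 not passing, at a median of 1.72. With the term for the unmapped share, 12 were higher and 0 lower. Nqo1, the quinone reductase most often used to read NRF2 activity (chromosome 8, 107388225 to 107403205), stood at 5.90, 4.92 and 5.32 CPM in WT and 243, 249 and 251 CPM in CTNNB1_NFE2L2. All libraries of a group lay close together, and the rise was 46.1-fold (5.53 ± 0.19, adjusted p = 3.40e-11). Srxn1, which repairs overoxidised peroxiredoxins, rose from 34.8, 35.5 and 40.2 CPM to 2099.8, 1910.1 and 1831 CPM (5.72 ± 0.26). Cbr3, a carbonyl reductase, rose from 0.863, 0.831 and 2.12 CPM to 282, 352 and 362 CPM (8.02 ± 0.36, 8.61 without WT replicate 3), and its relative Cbr1 by 3.13 ± 0.15. Txnrd1, the thioredoxin reductase, rose 3.17-fold (1.66 ± 0.14), and Ephx1, the microsomal epoxide hydrolase, 3.39-fold (1.76 ± 0.18). The haem-degrading enzymes differed in size, with 0.96 ± 0.20 for Hmox1, the oxygenase, and 2.73 ± 0.13 for Blvrb, a biliverdin reductase. Akr1b8, an aldose reductase relative, was the member that fell (-0.63 ± 0.21), a call lost without CTNNB1_NFE2L2 replicate 2 or WT replicate 1 and under total-count scaling.

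NADPH supply rose in part. Of 9 members 6 rose and 3 did not pass, with a median of 0.81, and with the term for the unmapped share 2 were higher and 0 lower. Pgd, the second NADPH-forming enzyme of the pentose phosphate pathway, stood at 41.8, 47.5 and 42.2 CPM in WT and 375, 381 and 345 CPM in CTNNB1_NFE2L2 (3.07 ± 0.18). G6pdx, the first enzyme of the pathway, rose 4.23-fold (2.08 ± 0.21), and the sugar-exchanging enzymes Tkt (1.53 ± 0.15) and Taldo1 (1.45 ± 0.12) rose as well. Malic enzyme (Me1), at 161, 106.7 and 166 CPM and 173, 167 and 139.8 CPM, overlapped between the groups and did not pass (0.14 ± 0.18, adjusted p = 0.533).

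ABC transporters that pump conjugates and drugs out of the cell rose in 9 of 11 members, with 1 lower and a median of 1.21. Under the unmapped-share term, 3 were higher and 0 lower. Abcc4, whose promoter is printed above, encodes a pump of the basolateral membrane. It went from 3.67, 1.42 and 4.75 CPM in WT to 1157, 1313 and 1056 CPM in CTNNB1_NFE2L2 (8.49 ± 0.49, adjusted p = 2.84e-08). Abcc2, the canalicular conjugate pump, changed far less, from 352, 325 and 412 CPM to 551, 599 and 556 CPM (0.65 ± 0.16), and Abcc3, the basolateral one, by 0.87 ± 0.21. The P-glycoprotein genes Abcb1a and Abcb1b, near copies of each other, rose by 4.84 ± 0.36 and 4.69 ± 0.28. Abcb11, the bile salt pump, did not pass (0.04 ± 0.18, adjusted p = 0.874), and Abcc6 was the member that fell (-0.72 ± 0.11). Glucuronosyl and sulfotransferases and carboxylesterases went in both directions, with 5 of 17 higher, 7 lower and 5 not passing. Under the same term 3 of them were higher and 0 lower. Among the carboxylesterases Ces2c rose by 4.27 ± 0.29, whereas Ces1f fell by 2.23 ± 0.21 on the log2 scale.

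Feedback inhibitors and receptors of Wnt signalling rose in 9 of 10 members, with a median of 1.87. With the unmapped share fitted, 4 were higher and 0 lower. Nkd1, an inhibitor that binds Dishevelled (chromosome 8, 88521342 to 88594887), stood at 5.32, 4.75 and 4.04 CPM in WT and 154, 108.6 and 101.99 CPM in CTNNB1_NFE2L2. The groups lay more than 10-fold apart, and the rise was 25.9-fold (4.69 ± 0.23, adjusted p = 1.47e-09). Axin2, a scaffold of the destruction complex, rose from 9.49, 6.05 and 11.4 CPM to 31.2, 26.0 and 31.2 CPM (1.72 ± 0.23), and Notum, which strips the lipid from Wnt ligands, from 48.8, 47.0 and 54.3 CPM to 125.3, 140.2 and 133 CPM (1.41 ± 0.13). Lgr5, the R-spondin receptor, rose from 2.44, 3.20 and 3.21 CPM to 27.1, 20.3 and 13.9 CPM (2.78 ± 0.26), with replicate 1 of the model the highest. Apcdd1, an inhibitor at the cell surface, was below 0.4 CPM in WT and reached 25.1, 15.9 and 16.7 CPM (6.74 ± 0.50, 7.52 without WT replicate 3). Tnfrsf19, a receptor of the tumour necrosis factor family whose promoter is printed above, rose by 2.02 ± 0.35. Rnf43, the ubiquitin ligase that removes Wnt receptors, passed (0.75 ± 0.23, adjusted p = 0.017) but not without CTNNB1_NFE2L2 replicate 1 (0.58), WT replicate 2 (0.63) or WT replicate 3 (0.62). Dkk4, a secreted Wnt inhibitor, was the member that fell (-2.33 ± 0.80), from a low level of 0.288, 3.44 and 1.48 CPM. Its call was lost without CTNNB1_NFE2L2 replicate 2 or 3 or WT replicate 2, with the single-strand column and in a fit of only the 6 libraries.

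Wnt-responsive transcription and growth genes rose in 5 of 8 members, fell in 1 and did not pass in 2, with a median of 1.54. In the fit with the unmapped share, 0 were higher and 0 lower. Ccnd1, the G1 cyclin, stood at 66.3, 52.4 and 51.6 CPM in WT and 210.0, 226 and 191 CPM in CTNNB1_NFE2L2 (1.88 ± 0.19). Tbx3, a transcriptional repressor, rose from 29.2, 29.5 and 26.6 CPM to 97.5, 80.5 and 71.7 CPM (1.55 ± 0.17). Sp5, whose promoter is printed above, rose from 2.59, 1.42 and 2.18 CPM to 10.3, 8.94 and 8.34 CPM (2.16 ± 0.22), and the DNA-binding partners of β-catenin Lef1 (3.97 ± 0.50) and Tcf7 (1.54 ± 0.20) rose as well. Myc, at 3.81, 8.90 and 3.40 CPM and 11.0, 16.3 and 12.6 CPM, did not overlap between the groups and did not pass (1.29 ± 0.57, adjusted p = 0.0807). It was called higher without WT replicate 2 (1.90), by DESeq2 and in a fit of only the 6 libraries. The morphogen gene Bmp4 was the member that fell (-1.19 ± 0.31).

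Genes of pericentral hepatocytes rose in 14 of 18 members, with 3 lower, 1 not passing and a median of 1.59. With the term for the unmapped share, 10 were higher and 0 lower. Glul, the glutamine synthetase of the innermost layer (chromosome 1, 153899929 to 153909723), stood at 594, 594 and 512 CPM in WT and 3779, 4216 and 3768 CPM in CTNNB1_NFE2L2. It rose 6.92-fold with no overlap (2.79 ± 0.16, adjusted p = 3.24e-09). Slc1a2, the glutamate importer of the same layer, rose from 116.8, 111.2 and 135 CPM to 948, 1115 and 875 CPM (3.02 ± 0.20), and Rhbg, an ammonium transporter, from 9.06, 4.98 and 8.47 CPM to 102.4, 67.0 and 68.5 CPM (3.41 ± 0.22). Cyp1a2, which oxidises caffeine and many drugs, rose from 1131, 570.3 and 993 CPM to 7393, 7788 and 7392 CPM (3.07 ± 0.23). Slc22a3, an organic cation transporter, rose by 4.25 ± 0.22, Lect2, a secreted chemotactic factor, by 1.45 ± 0.19, and Oat, ornithine aminotransferase, by 1.17 ± 0.21. Members that fell were Cyp2c29 (-2.52 ± 0.44), the vasopressin receptor Avpr1a (-0.85 ± 0.22) and Cyp2e1, the ethanol-oxidising cytochrome. Cyp2e1 went from 8076, 6639.8 and 7646 CPM to 3459, 4867 and 5523 CPM (-0.69 ± 0.23, adjusted p = 0.0236), and its call was lost without CTNNB1_NFE2L2 replicate 1 (-0.52), WT replicate 1 (-0.63) or WT replicate 3 (-0.67) and under total-count scaling, and it stood at 0.43 with the term for the unmapped share.

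Periportal genes fell in 13 of 15 members and rose in 0, with a median of -2.05. Under the unmapped-share term, 0 were higher and 0 lower. Cyp2f2, the cytochrome that marks the periportal zone, stood at 2118, 1172 and 2404 CPM in WT and 279.8, 81.6 and 299 CPM in CTNNB1_NFE2L2 (-3.11 ± 0.47, adjusted p = 1.69e-04). WT replicate 2 and CTNNB1_NFE2L2 replicate 2 were the lowest of their groups, and the groups did not overlap. Enzymes of histidine breakdown fell, Hal from 307, 194 and 223 CPM to 23.7, 11.2 and 28.0 CPM (-3.53 ± 0.34) and Uroc1 from 555, 424 and 470.5 CPM to 81.7, 51.9 and 99.2 CPM (-2.64 ± 0.24). Gls2, the liver glutaminase, fell by 2.54 ± 0.45, and Sds, serine dehydratase, by 2.11 ± 0.46 on the log2 scale, where Sds stood at -2.78 without CTNNB1_NFE2L2 replicate 3. Aldh1b1, an aldehyde dehydrogenase, fell by 1.23 ± 0.17, and Hsd17b13, a lipid droplet enzyme, by 1.00 ± 0.12. Urea cycle genes fell in 6 of 7 members. Cps1, the first and rate-limiting enzyme (chromosome 1, 67122426 to 67231267), went from 3468, 2137 and 3782 CPM to 502, 226 and 628 CPM (-2.79 ± 0.38, adjusted p = 5.09e-05), and the last enzyme, Arg1, from 2027, 1467 and 1948 CPM to 299, 257 and 488 CPM (-2.38 ± 0.23). Otc (-1.88 ± 0.30), which makes citrulline, and Asl (-1.29 ± 0.21), which splits argininosuccinate, fell as well. Ass1, which makes argininosuccinate, had 0 to 4 counts per library in the files and was not tested. Multimapping and ambiguous reads are outside these counts, so its level cannot be read from them. With the unmapped share fitted, 0 were higher and 0 lower among the urea cycle genes.

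**Figure D2:**
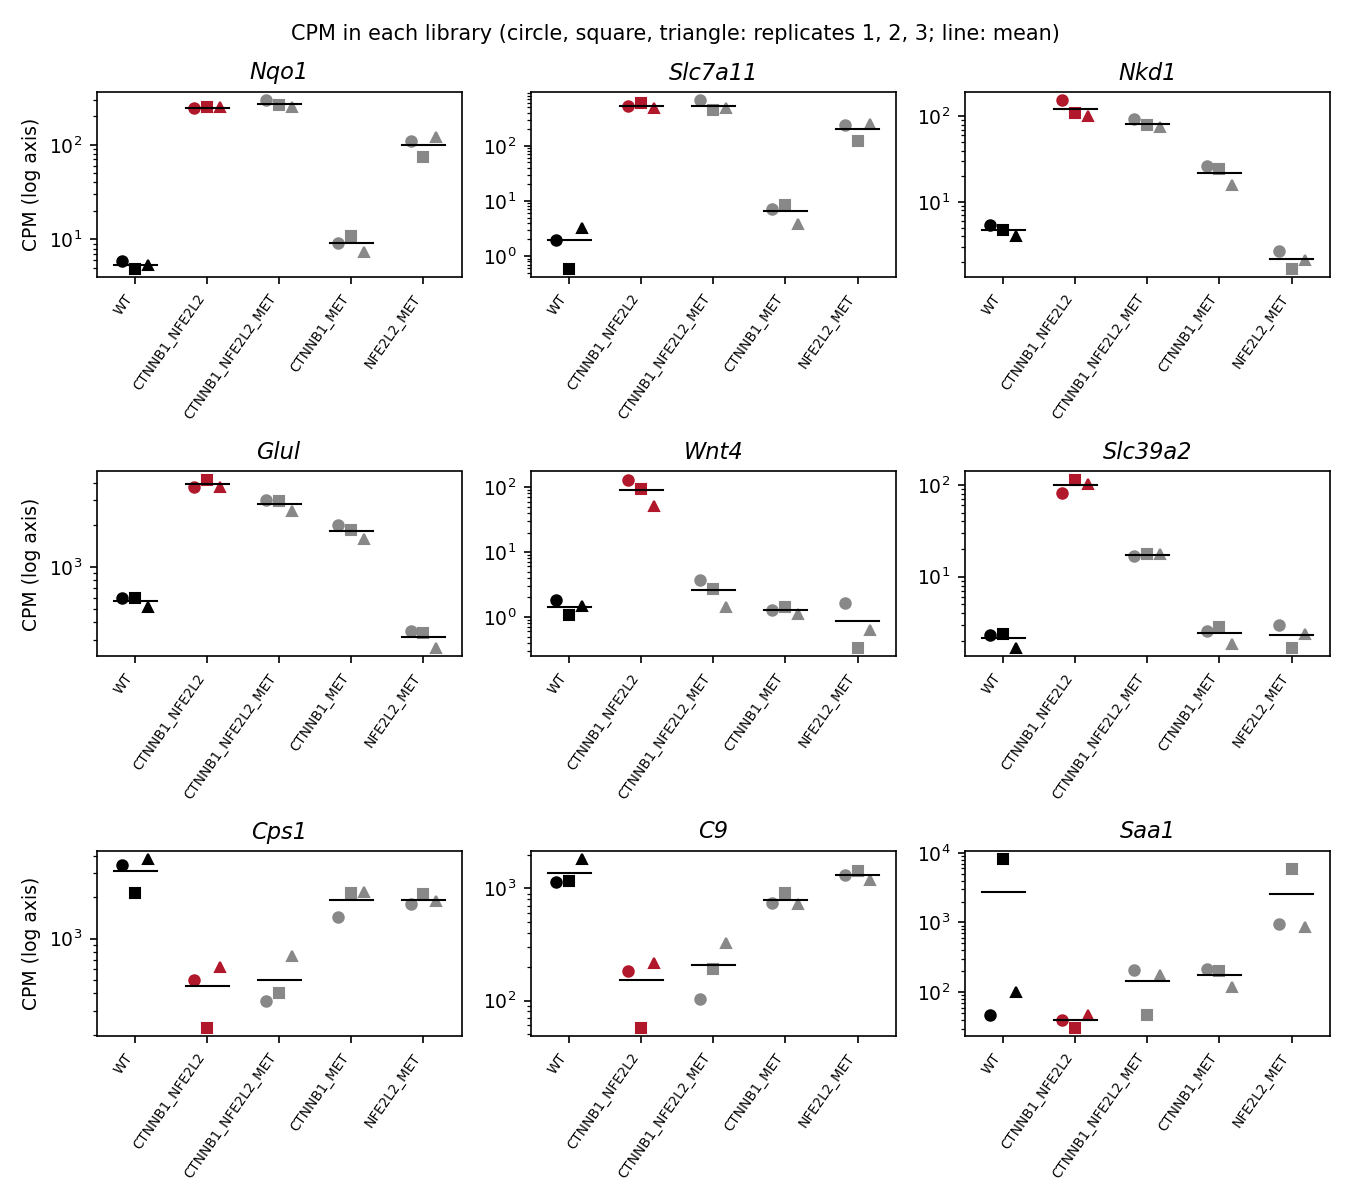
CPM of 9 genes in each of the 15 libraries (log axis), by group, with a marker per replicate and a line at the group mean (n = 3). Nqo1, Slc7a11, Nkd1, Glul, Wnt4 and Slc39a2 lie higher in CTNNB1_NFE2L2 (red) than in WT (black), Cps1 and C9 lie lower, and for Saa1 the WT mean is set by replicate 2 at 8052 CPM beside 46.8 and 99.3 CPM.

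Cell cycle genes were low in WT and rose in the model. All 20 of 20 mitosis genes rose, with a median of 3.25, and 18 of 20 replication genes rose, with a median of 1.84. The summed level of the mitosis genes was 30.98 to 36.5 CPM in WT and 304 to 371 CPM in CTNNB1_NFE2L2. Mki67, which encodes the proliferation antigen Ki-67, stood at 3.81, 3.08 and 2.76 CPM in WT and 54.1, 56.3 and 42.6 CPM in CTNNB1_NFE2L2 (3.99 ± 0.24, adjusted p = 1.01e-08). Cdk1, the mitotic kinase, rose by 3.34 ± 0.22, its cyclin Ccnb1 by 3.87 ± 0.36, the topoisomerase Top2a by 2.93 ± 0.21 and the centromere protein gene Cenpf by 3.78 ± 0.26. Among the genes of the replicative helicase Mcm5 (3.10 ± 0.32), Mcm6 (3.39 ± 0.32) and Gins2 (4.17 ± 0.34) rose, and Pcna, the sliding clamp, went from 29.5, 26.8 and 27.3 CPM to 52.0, 52.4 and 47.6 CPM (0.86 ± 0.12). In the fit with the unmapped share, 7 were higher and 0 lower among the mitosis genes and 1 was higher and 0 lower among the replication genes. In bulk tissue a larger share of cells and more RNA per cell cannot be told apart, here or in any of the cell type results below.

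Targets of p53 rose in 7 of 15 members and 8 did not pass. That is 46.7% called, near the 48.7% of all genes tested, with every call higher, where 24.5% of all genes were higher. The rises numbered 5 without CTNNB1_NFE2L2 replicate 1 and 8 without its replicate 3 or WT replicate 3. Mdm2, the ligase that degrades p53, went from 26.0, 26.5 and 27.4 CPM to 46.6, 34.3 and 37.8 CPM (0.57 ± 0.14), and Ccng1, a cyclin, from 25.7, 24.9 and 27.8 CPM to 42.3, 37.7 and 36.2 CPM (0.57 ± 0.08). Gdf15, a secreted stress cytokine, rose by 1.89 ± 0.37, and Eda2r, a death receptor family member, by 2.66 ± 0.51. Cdkn1a, which encodes the cell cycle inhibitor p21, did not pass (0.72 ± 0.65, adjusted p = 0.386), with 4.39, 4.03 and 25.7 CPM in WT, where replicate 3 was above every model library, and 22.5, 18.4 and 15.5 CPM in the model. Without WT replicate 3, Cdkn1a was called higher, at 2.16 (adjusted p = 0.00551). No p53 target was called with the term for the unmapped share.

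Secreted products of hepatocytes fell. Of 20 plasma protein genes 17 fell and 3 did not pass, with a median of -1.03, and their summed level was 139704 to 159498 CPM in WT and 58855 to 70610.4 CPM in CTNNB1_NFE2L2. Alb went from 43888, 45198 and 63513 CPM in WT to 16452, 14265 and 19827 CPM in CTNNB1_NFE2L2 (-1.59 ± 0.21), with no overlap. Apoa1, the main protein of high-density lipoprotein, fell by 1.01 ± 0.17, and Ttr, the thyroid hormone carrier, by 1.06 ± 0.20 on the log2 scale. The clotting factor genes F7 (-1.35 ± 0.16) and F9 (-1.27 ± 0.15), the fibrinogen chain gene Fgg (-2.34 ± 0.30) and the kininogen gene Kng1 (-1.48 ± 0.17) fell. Complement genes fell in 13 of 15 members. C9, the pore-forming component, went from 1150.0, 1165 and 1814 CPM to 183, 57.5 and 217 CPM (-3.17 ± 0.48), and Mbl2, a lectin that starts the cascade, was the member that rose (0.80 ± 0.15). With the term for the unmapped share, 0 were higher and 4 lower among the plasma protein genes, and 1 was higher and 3 lower among the complement genes.

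Hepatocyte transcription factor genes fell in 8 of 16 members and rose in 0. That is 50% called, near the 48.7% of all genes tested, with every call lower, where 24.2% of all genes were lower. Hnf4a, the master factor of hepatocyte identity, went from 959, 743 and 1090.3 CPM to 541, 615 and 717 CPM (-0.58 ± 0.15), and Ppara, the fatty acid receptor, from 398, 310.5 and 455 CPM to 146, 146 and 159 CPM (-1.37 ± 0.15). Cebpa (-1.05 ± 0.19), Foxa3 (-1.09 ± 0.20) and Prox1 (-0.95 ± 0.17) also fell. Bile acid genes fell in 6 of 14 members and rose in 1, so that 50% were called beside 48.7% of all genes tested. Slc10a1, the importer of bile salts from blood, went from 512, 489 and 514 CPM to 98.1, 81.3 and 149 CPM (-2.21 ± 0.23), and the organic anion importer Slco1a1 changed by -2.36 ± 0.35. Cyp7b1, of the alternative synthesis route, fell by 2.26 ± 0.36 on the log2 scale, and Slc51b, a subunit of the basolateral bile acid exporter, was the member that rose (3.70 ± 0.85). Under the unmapped-share term, 0 were higher and 1 lower among the transcription factor genes, and 0 were higher and 0 lower among the bile acid genes.

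Most lipid synthesis genes fell. Fatty acid and triglyceride synthesis fell in 10 of 15 members and rose in 1. Srebf1, the factor that drives lipogenesis, went from 206, 342 and 156 CPM in WT to 56.4, 60.0 and 55.5 CPM in CTNNB1_NFE2L2 (-2.03 ± 0.22, adjusted p = 5.40e-06), and Acly, which supplies cytosolic acetyl-CoA, from 165, 212 and 209.8 CPM to 76.5, 55.5 and 60.9 CPM (-1.60 ± 0.14). The sugar-sensing factor gene Mlxipl (-1.33 ± 0.17) and the desaturase gene Fads2 (-1.58 ± 0.23) fell. Fasn, the fatty acid synthase, overlapped between the groups and did not pass (-0.44 ± 0.25, adjusted p = 0.157), but was called lower without WT replicate 3 (-0.69, adjusted p = 0.0153). Nor did the desaturase Scd1 pass (-0.54 ± 0.52, adjusted p = 0.425). Pnpla3, a lipid droplet enzyme, was the member that rose (1.62 ± 0.51), a call lost without WT replicate 1 or 3. With the unmapped share fitted, 0 were higher and 3 lower in this list. Cholesterol synthesis genes fell in 13 of 18 members, but in 6 without WT replicate 2, where 2 others were higher, in 8 without CTNNB1_NFE2L2 replicate 2 and in 8 without its replicate 3. The same term left 3 of them lower and 0 higher. The sterol cyclase gene Lss went from 60.8, 110.995 and 49.0 CPM to 25.1, 22.3 and 26.4 CPM (-1.58 ± 0.26) and Dhcr7, of the last step, from 91.5, 195 and 94.5 CPM to 40.8, 42.9 and 40.6 CPM (-1.62 ± 0.24), where WT replicate 2 was the highest library for both. Squalene epoxidase (Sqle) was called (-1.10 ± 0.32, adjusted p = 0.0131) but not without that library (-0.58).

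Energy metabolism went in both directions. Fatty acid oxidation and PPAR alpha targets rose in 5 and fell in 6 of 17 members, with 3 higher without WT replicate 1. Pdk4, which blocks pyruvate oxidation, rose from 3.09, 1.25 and 7.504 CPM to 53.6, 35.4 and 45.1 CPM (3.50 ± 0.46, 4.40 without WT replicate 3). Ehhadh, a peroxisomal oxidation enzyme, rose by 1.14 ± 0.18. Gluconeogenesis genes fell in 4 of 8 members (50% called beside 48.7% of all genes tested), with 1 lower under the unmapped term. Fbp1, the fructose bisphosphatase, went from 811, 733 and 661 CPM to 131, 113.6 and 158 CPM (-2.45 ± 0.20), and Pck1 from 3343, 2488 and 5238 CPM to 799, 382 and 980.3 CPM (-2.36 ± 0.41). G6pc, the final glucose-releasing enzyme, overlapped between the groups and did not pass (-0.25 ± 0.58, adjusted p = 0.758). In glycolysis 4 of 15 rose and 4 fell, 53.3% called and near the 48.7% of all genes tested. The hepatocyte glucose transporter gene Slc2a2 (-1.68 ± 0.16) fell, whereas Gpi1 (0.96 ± 0.15) and Pgam1 (0.84 ± 0.12), enzymes of most cells, rose. Pkm, the pyruvate kinase of proliferating tissue, rose (0.84 ± 0.26, adjusted p = 0.0159) but was not called without CTNNB1_NFE2L2 replicate 2 (0.75). No gene of the fatty acid oxidation or glycolysis list was called under the unmapped-share term.

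Cytochromes governed by the xenobiotic receptors rose in 3 and fell in 5 of 14 members, 57.1% called beside 48.7% of all genes tested. With the unmapped share fitted, 1 was higher and 0 lower. Cyp1a1, the classic AHR target, went from 2.01, 1.31 and 2.37 CPM to 11.0, 13.0 and 11.4 CPM (2.64 ± 0.31), and Cyp2c55 from 1.73, 0.534 and 1.28 CPM to 24.0, 32.6 and 27.9 CPM (4.60 ± 0.34). Cyp3a11, the PXR target, fell from 3719.8, 1745 and 6760.4 CPM to 671, 819.5 and 1047 CPM (-2.27 ± 0.48), with WT replicate 3 the highest library. Cyp2b10, the CAR target, stood at 2.73, 2.49 and 30.4 CPM in WT and 0.435, 1.41 and 0.278 CPM in the model (-4.05 ± 1.04), a value that became -1.87 without WT replicate 3 and -5.02 without CTNNB1_NFE2L2 replicate 2.

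Most male-biased liver genes fell, and so did part of the growth hormone readouts. In the growth hormone and IGF1 list 5 of 10 fell and 1 rose. Igf1, the circulating growth factor, went from 787, 753 and 599 CPM to 203, 138 and 264 CPM (-1.82 ± 0.24), its carrier Igfals changed by -1.68 ± 0.26 and the growth hormone receptor Ghr by -1.12 ± 0.26. Igfbp2, a binding protein, fell by 2.75 ± 0.36 on the log2 scale, and Igfbp1, another binding protein, was the member that rose (2.79 ± 0.87), a call lost without CTNNB1_NFE2L2 replicate 1 or WT replicate 1 or 2. Male-biased genes fell in 9 of 12 members. Hsd3b5, a steroid dehydrogenase of male liver, went from 314, 262 and 236 CPM to 24.3, 4.34 and 36.4 CPM (-3.64 ± 0.72, -4.23 without CTNNB1_NFE2L2 replicate 3), and Mup3, a major urinary protein gene, changed by -3.02 ± 0.49. Elovl3, a fatty acid elongase with a daily rhythm, stood at 111.4, 78.7 and 911 CPM in WT and 43.2, 6.06 and 13.6 CPM in the model (-4.12 ± 1.09), and at -2.17 without WT replicate 3 and -5.22 without CTNNB1_NFE2L2 replicate 1. Female-biased genes rose in 4 of 11, Cyp2a4 and Fmo2 (2.21 ± 0.44) among them, and in 3 without any 1 of the 6 libraries. Cyp17a1 was called lower (-1.67 ± 0.63) but not without any 1 of the 6 libraries. With both directions 45.5% of this list was called, below the 48.7% of all genes tested. With the unmapped share fitted, 0 were higher and 0 lower among the male-biased genes and in the growth hormone and IGF1 list. Of the female-biased genes 1 was then higher and 0 lower.

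Acute phase genes fell in 11 of 13 members, and in 7 without any 1 of the CTNNB1_NFE2L2 libraries. Saa1, the serum amyloid A gene most strongly induced by inflammation, stood at 46.8, 8052 and 99.3 CPM in WT and 39.8, 30.99 and 46.7 CPM in CTNNB1_NFE2L2 (-6.12 ± 1.82, adjusted p = 0.0164). Its call was lost without WT replicate 2 (-0.89) and without any 1 model library (-6.13, -5.98 and -6.27), and that of Saa2 (-7.33 ± 2.27) likewise, at -0.70 without WT replicate 2 and -7.48, -7.25 and -7.26 without a model library. Fgl1, a secreted ligand of LAG3, went from 153, 2061 and 135 CPM to 60.2, 51.5 and 52.7 CPM (-3.84 ± 0.99), and stayed called at -1.38 without WT replicate 2. Without that library 6 members were lower and 2 higher, and under the unmapped-share term 0 were higher and 5 lower. Itih3 (-1.86 ± 0.40, -1.14 without it) and Itih4 (-2.15 ± 0.40, -1.51 without it) encode heavy chains bound to hyaluronan. Crp (-1.82 ± 0.29), C-reactive protein, and Cp (-1.30 ± 0.18), ceruloplasmin, fell. Of 11 iron genes 4 rose and 4 fell, and under the unmapped-share term 1 was higher and 1 lower. Hamp, the hormone hepcidin, went from 2620.2, 1762 and 1852 CPM to 331, 362 and 746 CPM (-2.12 ± 0.45), and the iron sensor Tfr2 changed by -1.47 ± 0.15. Both ferritin chains rose, Fth1 from 1500.1, 1309 and 1351 CPM to 5751, 6202 and 4926 CPM (2.02 ± 0.19) and Ftl1 by 1.61 ± 0.23, as did the transferrin receptor Tfrc (0.99 ± 0.20).

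Oncofetal and liver tumour markers rose in 11 of 17 members, with 1 lower and 5 not passing. Afp, α-fetoprotein, went from 2.37, 3.14 and 9.36 CPM in WT to 148, 138 and 119.8 CPM in CTNNB1_NFE2L2 (4.77 ± 0.55, 5.61 without WT replicate 3), and the surface glypican gene Gpc3 from 0.935, 1.19 and 3.34 CPM to 19.9, 14.8 and 13.6 CPM (3.13 ± 0.50, 3.90 without it). WT replicate 3 was the highest WT library for both. The non-coding genes of the imprinted Dlk1 locus rose, Meg3 from 6.97, 7.95 and 7.38 CPM to 215, 259 and 279 CPM (5.07 ± 0.37) and Rian by 4.87 ± 0.33, whereas Dlk1 itself fell (-1.96 ± 0.68), a call lost without CTNNB1_NFE2L2 replicate 2 or 3 or WT replicate 1 or 2. Golm1, a Golgi protein gene, rose from 3.38, 2.67 and 2.95 CPM to 41.9, 49.1 and 47.4 CPM (3.95 ± 0.15), and Ly6d from 0.647, 0.771 and 1.60 CPM to 212, 157 and 133 CPM (7.36 ± 0.44). Igf2 (-0.48 ± 0.39, adjusted p = 0.335) and H19 (-0.44 ± 0.68, adjusted p = 0.629), the fetal growth locus, did not pass. In the fit with the unmapped share, 4 were higher and 0 lower.

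Signalling and stress lists showed smaller or mixed changes. ERK output genes rose in 3 and fell in 2 of 13 members, 38.5% called beside 48.7% of all genes tested. The phosphatases Dusp6 (1.73 ± 0.25) and Dusp4 (2.66 ± 0.25) rose, whereas the inhibitors Spry4 (-2.62 ± 0.27) and Spred2 (-0.80 ± 0.19) fell. ATF4 and serine synthesis genes rose in 4 and fell in 1 of 14, with 35.7% called, also below that share. The amino acid exchanger subunits Slc3a2 (1.57 ± 0.16), the partner of Slc7a11, and Slc7a5 (1.59 ± 0.21) rose, and Asns, asparagine synthetase, did not pass (-0.14 ± 0.45, adjusted p = 0.82). Proteasome genes rose in 2 and fell in 7 of 27 members, near or below the background share, and total-count scaling gave 6 higher and 1 lower. Psmb5, a catalytic subunit, rose from 25.9, 22.2 and 28.7 CPM to 43.7, 42.6 and 47.1 CPM (0.80 ± 0.10). Without CTNNB1_NFE2L2 replicate 2, 3 proteasome genes were lower, and 4 without its replicate 3 or WT replicate 1. No ERK, ATF4, clock, immediate early or heat shock gene was called under the unmapped-share term. Clock genes fell in 7 of 16 members, in 4 without CTNNB1_NFE2L2 replicate 2 and in 3 under total-count scaling. That is 43.75% called beside 48.7% of all genes tested, with every call lower, where 24.2% of all genes were lower. The time of harvest is not given in the sources used here. Immediate early and heat shock genes rose in 7 of 12, and CTNNB1_NFE2L2 replicate 1 was the highest library for each of these 7. Hspa1a, an inducible chaperone, stood at 6.97, 2.49 and 2.24 CPM and 101.8, 18.4 and 15.1 CPM (3.56 ± 0.80, 2.13 without that library and 4.25 without WT replicate 1). Atf3 stood at 1.22, 0.831 and 0.834 CPM and 41.2, 16.9 and 6.67 CPM (4.49 ± 0.64, 3.62 without CTNNB1_NFE2L2 replicate 1), and Jun at 19.3, 12.9 and 12.8 CPM and 82.6, 56.3 and 49.0 CPM (2.07 ± 0.28).

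Interferon response genes rose in 19 of 23 members, with 2 lower and a median of 1.68. With the term for the unmapped share, 2 were higher and 0 lower. Mx1, a GTPase that blocks viral replication, stood at 0.216, 0.475 and 0.257 CPM in WT and 32.5, 35.3 and 31.01 CPM in CTNNB1_NFE2L2 (6.64 ± 0.43, adjusted p = 4.34e-08). Usp18, which removes ISG15 from proteins, rose from 1.87, 2.14 and 1.54 CPM to 22.6, 28.7 and 25.9 CPM (3.79 ± 0.28), Irf7, a factor that amplifies the response, by 2.09 ± 0.29, and Isg15 by 1.68 ± 0.20. Oas1a, an RNA sensor, rose by 3.47 ± 0.30, and Ifit1 by 1.82 ± 0.37, or 2.55 without WT replicate 2. Stat2 (-0.55 ± 0.15) and Iigp1 (-0.59 ± 0.17) were the members that fell. Neither was called under total-count scaling, and 1 of them was lost without CTNNB1_NFE2L2 replicate 2 or WT replicate 2.

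Antigen presentation genes mostly did not pass. MHC class I and immunoproteasome genes rose in 2 and fell in 2 of 10 members, with a median of 0.02 and 40% called beside 48.7% of all genes tested. Without CTNNB1_NFE2L2 replicate 2 or either of WT replicates 1 and 3 none was higher, and none was lower under total-count scaling. No MHC gene or chemokine was called under the unmapped-share term. H2-K1, a class I heavy chain gene, overlapped between the groups and did not pass (-0.13 ± 0.13, adjusted p = 0.402). B2m, the class I light chain, went from 1264, 1095 and 1180.4 CPM to 971, 788 and 921 CPM (-0.40 ± 0.12, adjusted p = 0.0136), -0.32 and not called without CTNNB1_NFE2L2 replicate 2. MHC class II genes rose in 3 of 8 (37.5% called), in 1 without CTNNB1_NFE2L2 replicate 1 or WT replicate 2, and in 5 without CTNNB1_NFE2L2 replicate 3 or under total-count scaling. Ctss, a protease that prepares class II for loading, rose from 12.4, 16.7 and 18.7 CPM to 53.2, 41.0 and 35.3 CPM (1.44 ± 0.21), while the class II chain genes H2-Aa (0.58 ± 0.28, adjusted p = 0.108) and H2-Ab1 (0.63 ± 0.28, adjusted p = 0.0817) did not pass. Both were called higher under total-count scaling, and H2-Ab1 also by DESeq2 and without CTNNB1_NFE2L2 replicate 3 (0.85) or WT replicate 1 (0.86). Chemokine genes rose in 7 and fell in 3 of 12. Without CTNNB1_NFE2L2 replicate 1 or WT replicate 2, 5 were higher, and 6 without WT replicate 1. Without CTNNB1_NFE2L2 replicate 2 or 3 or WT replicate 2, 2 were lower. Cxcl9, a T cell attractant, went from 2.09, 1.19 and 2.63 CPM to 8.65, 8.10 and 5.28 CPM (1.91 ± 0.50), and Cxcl12, made by stromal cells, from 386, 458 and 420.2 CPM to 153, 160.0 and 209.8 CPM (-1.27 ± 0.20). Of 10 checkpoint genes 5 rose and 1 fell, and under the unmapped-share term 1 was higher and 0 lower. Cd276 rose from 8.56, 9.20 and 4.49 CPM to 24.4, 25.4 and 22.4 CPM (1.70 ± 0.22), and Vtcn1, another inhibitory ligand, by 3.72 ± 0.41, or 4.75 without WT replicate 3.

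Markers of other cell types moved unevenly. Kupffer cell and macrophage markers rose in 14 of 16 members, with a median of 1.31 and a summed level of 307 to 369 CPM in WT and 696 to 959 CPM in CTNNB1_NFE2L2. Cd68, a lysosomal macrophage protein, went from 4.39, 5.04 and 4.55 CPM to 23.7, 20.01 and 14.6 CPM (2.06 ± 0.22), and C1qa from 39.3, 49.0 and 39.8 CPM to 111.6, 98.1 and 97.5 CPM (1.26 ± 0.16). Clec4f, a lectin of resident Kupffer cells, rose from 90.6, 89.0 and 101.5 CPM to 228, 139 and 193 CPM (1.00 ± 0.21), and Adgre1, which encodes F4/80, by 1.48 ± 0.24. Under the unmapped-share term, 0 were higher and 0 lower among the macrophage markers. T and NK cell markers rose in 2 of 10, so that 20% were called beside 48.7% of all genes tested. They rose in 1 without any 1 WT library or CTNNB1_NFE2L2 replicate 1, where 1 other was lower. Their summed levels were 5.87 to 6.97 CPM in WT and 6.28 to 11.0 CPM in CTNNB1_NFE2L2. Cd3e, a chain of the T cell receptor complex, stood at 0.288, 0.178 and 0.192 CPM and 0.628, 0.261 and 0.167 CPM and did not pass (0.71 ± 0.58, adjusted p = 0.341). B and plasma cell markers rose in 1 of 6, dendritic cell markers in 3 of 9 with 1 lower (none without CTNNB1_NFE2L2 replicate 1 or 2 or WT replicate 1 or 3), and neutrophil markers in 0 of 3. In that order 16.7%, 44.4% and 0% were called, all below the share of all genes tested. Liver endothelial markers and their Wnt signals rose in 4 and fell in 3 of 18, so that 38.9% were called beside 48.7% of all genes tested. Under total-count scaling 1 fell. Their summed levels were 361 to 452 CPM in WT and 357 to 412 CPM in CTNNB1_NFE2L2. The sinusoidal markers Stab2 (-0.18, adjusted p = 0.237) and Clec4g (-0.53, adjusted p = 0.0659) did not pass. Lyve1 rose by 3.22 ± 0.35 and Cd34 by 1.84 ± 0.33, while Rspo3, the R-spondin of central vein endothelium, changed by -2.0 ± 0.29.

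Stellate cell and fibroblast markers fell in 8 of 14 members and rose in 1, a rise lost without CTNNB1_NFE2L2 replicate 1 or 2 or WT replicate 3, at summed levels of 431 to 1046 CPM in WT and 339.6 to 514 CPM in CTNNB1_NFE2L2. Dcn, decorin, went from 79.7, 67.1 and 88.4 CPM to 31.01, 16.8 and 24.3 CPM (-1.70 ± 0.24), and Lrat, which stores vitamin A in stellate cells, changed by -1.87 ± 0.36. Col1a1, the collagen I chain, stood at 318, 326 and 54.5 CPM in WT, where replicate 3 was the lowest, and 72.1, 66.5 and 23.8 CPM in the model (-2.10 ± 0.57). Cholangiocyte and progenitor markers fell in 5 of 9, Spp1, osteopontin, by 2.42 ± 0.33 on the log2 scale. Epcam, an epithelial adhesion molecule, was the member that rose, from 0.647, 0.534 and 1.15 CPM to 26.5, 13.5 and 20.8 CPM (4.69 ± 0.34). Slc4a1, the anion exchanger of red cells, rose from 0.0719, 0.297 and 0.385 CPM to 19.6, 21.7 and 9.73 CPM (6.01 ± 0.58), while Alas2, the red cell enzyme of haem synthesis, did not pass (0.09 ± 0.15, adjusted p = 0.65). The globin genes were at 0 counts in all 6 libraries. Multimapping and ambiguous reads are outside these counts, so this does not show that globin RNA was absent. The pancreatic acinar genes Ctrb1, Amy2a5 and Cpb1 were at 0 counts in all 6, and Cela3b was at 0 counts in WT and 0.725, 1.10 and 0.500 CPM in the model. Under the unmapped-share term 0 were higher and 0 lower among the stellate markers, and 1 was higher and 0 lower among the cholangiocyte markers. No T and NK cell, B cell, dendritic, endothelial, erythroid or acinar marker was called with that term, where Slc4a1 stood at 1.56 (adjusted p = 0.589). The part of these cell type markers in the other results was not tested.

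**Figure D3:**
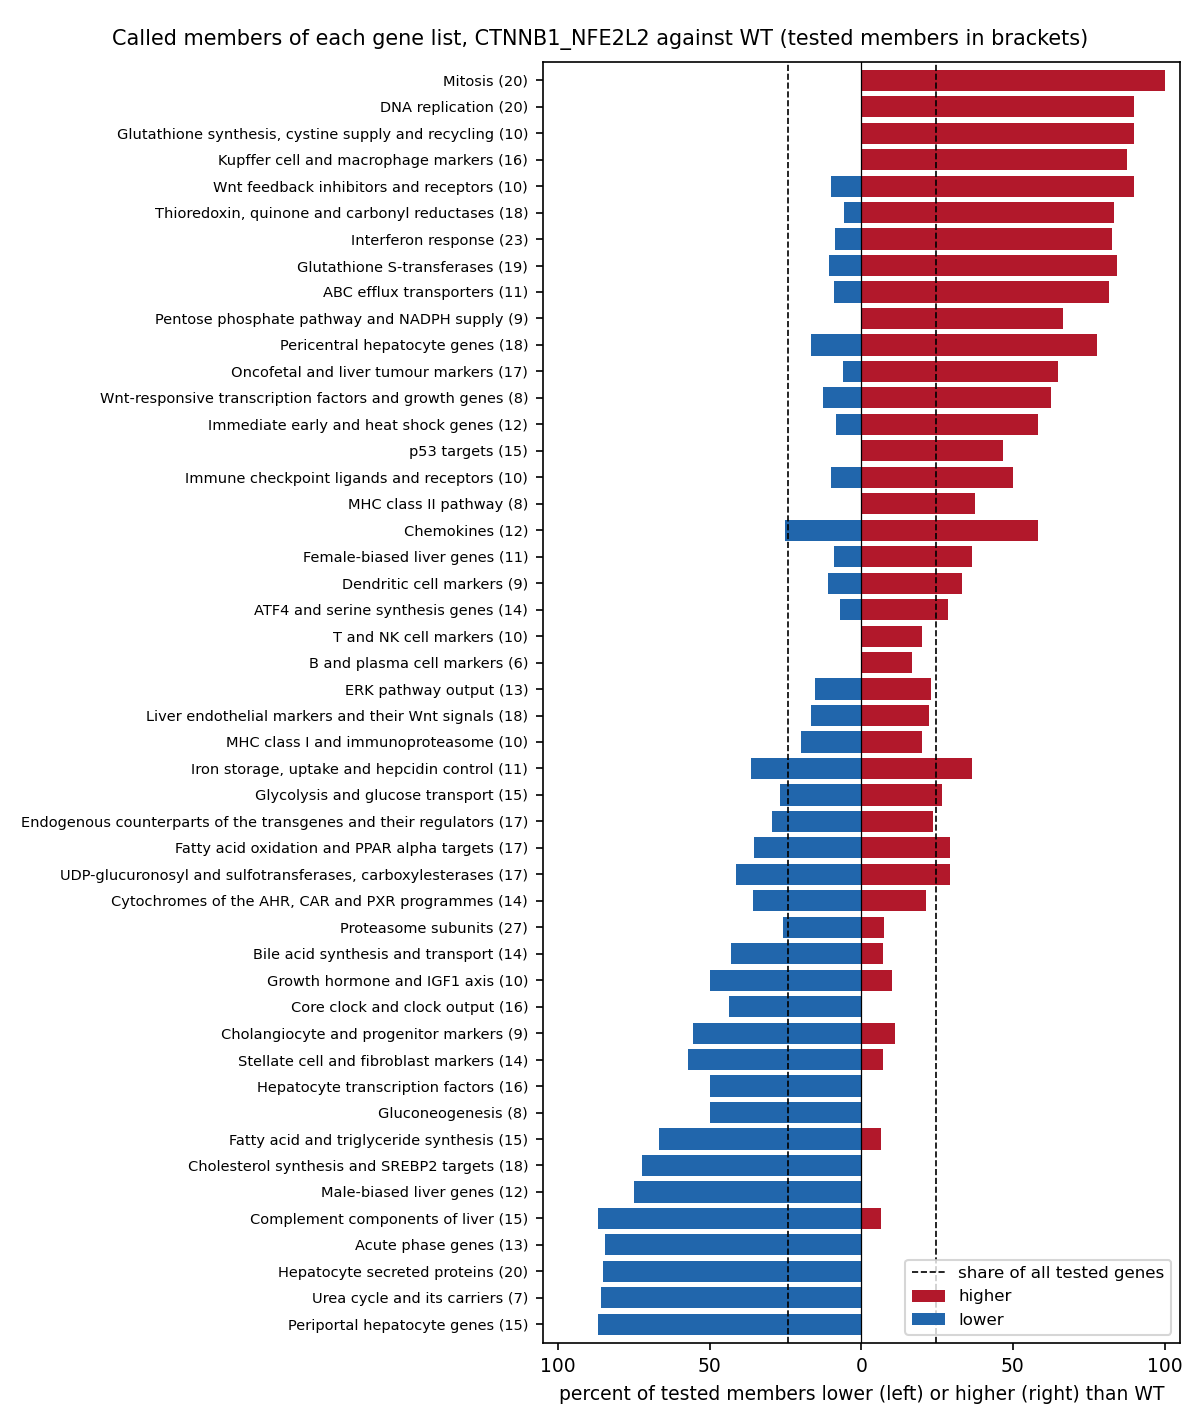
Percent of the tested members of each gene list that were called higher (red, right) or lower (blue, left) in CTNNB1_NFE2L2 than in WT, for lists with at least 6 tested members, with dashed lines at the shares among all tested genes (24.5% higher and 24.2% lower). All mitosis genes were higher, and periportal, urea cycle, secreted protein and complement lists were mostly lower.

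The combined model also differed from each of the models with human MET when tested directly. All of these comparisons use the same 3 CTNNB1_NFE2L2 libraries. CTNNB1_MET and NFE2L2_MET each hold human MET in place of a mutant, so the missing mutant and the added MET cannot be told apart there. Against CTNNB1_NFE2L2_MET, which adds human MET, 3520 genes were called (25.0%), 1667 higher (11.8%) and 1853 lower (13.1%), and 2259 were called without CTNNB1_NFE2L2 replicate 2. Against CTNNB1_MET, with human MET in place of the NRF2 mutant, 4954 were called (35.1%), 2530 higher (17.9%) and 2424 lower (17.2%). Against NFE2L2_MET, with human MET in place of the β-catenin mutant, 5239 were called (37.2%), 2579 higher (18.3%) and 2660 lower (18.9%). Total-count scaling gave 38.8%, 75.7% and 82.0% of the calls higher in these comparisons, against 47.4%, 51.1% and 49.2% under TMM. With the term for the unmapped share, 3485, 1632 and 4158 genes were called in the same order.

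Wnt4 stood apart in the combined model. It was at 91.0 ± 39.5 CPM (SD, n = 3) in CTNNB1_NFE2L2, at 2.60 ± 1.14 CPM in CTNNB1_NFE2L2_MET, at 1.27 ± 0.161 CPM in CTNNB1_MET and at 0.871 ± 0.691 CPM in NFE2L2_MET. The differences were 5.13 ± 0.42, 6.17 ± 0.47 and 6.67 ± 0.49 on the log2 scale (adjusted p = 8.92e-06, 6.93e-07 and 6.29e-07), so the gene was higher here than in the model that shares both mutants. Slc39a2 showed the same order, at 99.9 ± 15.7 CPM against 17.2 ± 0.535, 2.41 ± 0.523 and 2.32 ± 0.642 CPM, with 2.53 ± 0.16 against CTNNB1_NFE2L2_MET (adjusted p = 2.21e-07). Maoa was at 752 ± 101.97 CPM against 382 ± 37.2 CPM in CTNNB1_NFE2L2_MET (0.97 ± 0.19) and at 25.3 ± 6.86 and 20.1 ± 4.43 CPM in the pairs with MET. Slc22a12 was higher than in CTNNB1_NFE2L2_MET (1.59 ± 0.37), CTNNB1_MET (6.79 ± 0.47) and NFE2L2_MET (2.34 ± 0.38). Against the same groups in that order Slc4a1 differed by 4.06 ± 0.47, 4.26 ± 0.48 and 5.78 ± 0.56, and Slc22a3 by 2.38 ± 0.19, 3.10 ± 0.20 and 5.20 ± 0.24. Dio1 was lower than in each of them, with differences of -2.54 ± 0.59, -4.79 ± 0.62 and -3.80 ± 0.61, and so was Spry4, with -1.94 ± 0.27, -3.53 ± 0.27 and -2.43 ± 0.27.

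Glutathione and redox genes were higher than in CTNNB1_MET, the model with human MET in place of the NRF2 mutant. There 9 of 10 glutathione genes, 14 of 19 glutathione S-transferases and 15 of 18 reductase genes were higher, with medians of 2.46, 1.71 and 2.04. Against NFE2L2_MET, which carries the NRF2 mutant, 8, 12 and 13 of the same lists were also higher. There 0, 0 and 1 were lower, and the medians were 1.02, 1.03 and 0.71. Nqo1 was at 9.14 ± 1.78 CPM in CTNNB1_MET (4.77 ± 0.18) and at 100.6 ± 23.9 CPM in NFE2L2_MET (1.30 ± 0.16), below the 248 ± 4.52 CPM of the combined model in both. Its difference from the 268 ± 23.7 CPM of CTNNB1_NFE2L2_MET did not pass (-0.11 ± 0.15, adjusted p = 0.627). Slc7a11 was higher than in CTNNB1_MET (6.39 ± 0.47) and NFE2L2_MET (1.41 ± 0.37), and its difference from CTNNB1_NFE2L2_MET did not pass (0.00 ± 0.36, adjusted p = 0.997). Wnt target and pericentral genes were higher than in NFE2L2_MET, the model with human MET in place of mutant β-catenin. There 9 of 10 feedback genes and 16 of 18 pericentral genes were higher. Against CTNNB1_MET, which carries mutant β-catenin, 5 of 10 feedback genes were higher and 1 lower. Of the 18 pericentral genes, 8 were higher there and 4 lower. Nkd1 was higher than in NFE2L2_MET (5.81 ± 0.25), CTNNB1_MET (2.47 ± 0.20) and CTNNB1_NFE2L2_MET (0.57 ± 0.19), and Glul likewise (3.65 ± 0.16, 1.12 ± 0.15 and 0.46 ± 0.15). Axin2 was higher than in NFE2L2_MET (2.83 ± 0.25) and CTNNB1_MET (0.81 ± 0.22) but lower than in CTNNB1_NFE2L2_MET (-0.65 ± 0.21).

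Mitosis genes were higher in all 20 of 20 members than in CTNNB1_MET and in all 20 than in NFE2L2_MET, with medians of 1.29 and 2.63. Against CTNNB1_NFE2L2_MET 0 were higher and 3 lower, Mki67 among the latter (-0.54 ± 0.19). Genes lower than in CTNNB1_NFE2L2_MET included all 8 of 8 MHC class II genes, with a median of -1.75, 8 of 13 ERK output genes and 9 of 17 oncofetal genes. Cd74, the class II invariant chain, was at 76.8 ± 21.7 CPM against 202 ± 66.7 CPM (-1.40 ± 0.26). Against WT, where Cd74 was higher (0.81 ± 0.26), its call was lost without CTNNB1_NFE2L2 replicate 1 (0.58) or WT replicate 2 (0.66). Afp was lower than in CTNNB1_NFE2L2_MET (-3.15 ± 0.49) and CTNNB1_MET (-2.56 ± 0.47), and Gpc3 was lower than in all of the models with MET (-4.73 ± 0.45, -3.47 ± 0.43 and -2.58 ± 0.41). Asns (-3.91 ± 0.41) and Phgdh (-3.96 ± 0.50), of asparagine and serine synthesis, were lower than in CTNNB1_NFE2L2_MET too. ABC efflux transporters were higher than there in 7 of 11 members, with a median of 0.89, and the P-glycoprotein gene Abcb1b differed by 1.54 ± 0.22, 3.74 ± 0.26 and 4.35 ± 0.27 from CTNNB1_NFE2L2_MET, CTNNB1_MET and NFE2L2_MET. Periportal genes were lower in 11 of 15 members than in CTNNB1_MET and in 13 than in NFE2L2_MET, while against CTNNB1_NFE2L2_MET 2 were lower and 1 higher. Cps1 was at 452 ± 206 CPM in the combined model and 504 ± 218 CPM with MET added (-0.16 ± 0.36, adjusted p = 0.786), against 1930.1 ± 435 CPM in CTNNB1_MET (-2.10 ± 0.37).

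**Figure D4:**
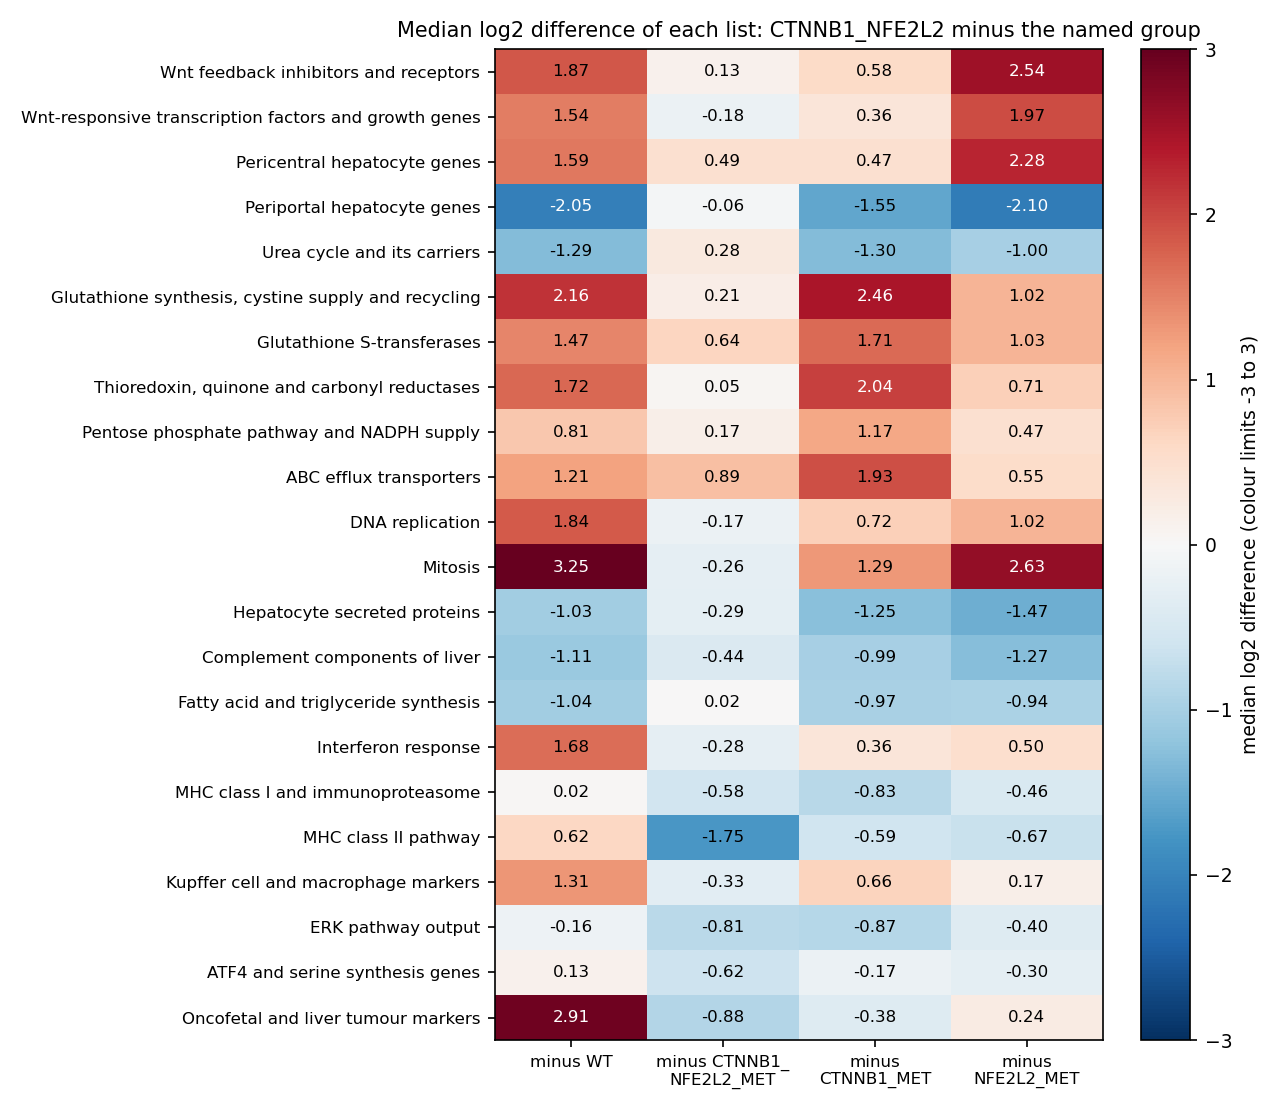
Median log2 difference over the tested members of 22 gene lists between CTNNB1_NFE2L2 and WT (first column) and each model with human MET (other columns), red for higher and blue for lower in CTNNB1_NFE2L2. The glutathione median is highest against CTNNB1_MET (2.46), the Wnt feedback median against NFE2L2_MET (2.54), and the MHC class II median is lowest against CTNNB1_NFE2L2_MET (-1.75).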

How the data were processed

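PolyA RNA of mouse liver was sequenced in 15 Illumina libraries, 3 in each of 5 groups. The deposited files hold read counts per gene that the authors made by trimming reads with Trimmomatic, aligning them to mm10 with STAR and counting with STAR, per the submitters' processing notes and the file layout. Versions and the annotation release are not stated there. The unstranded count column was used. The single-strand column held 49.7 to 49.9% of the stranded counts, so antisense and overlapping genes cannot be separated. Rows for unmapped, multimapping, featureless and ambiguous reads were left out of library totals. Reads of close paralogs are uncertain.

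Groups came from the labels, which give no replicate numbers, so replicates are numbered in accession order. Genes kept by filterByExpr (by group) were fitted over all 15 libraries, with 1 coefficient per group, by edgeR 4.0.16 (R 4.3.3, TMM totals, robust quasi-likelihood F test), and adjusted p-values (Benjamini-Hochberg, threshold 0.05) span all 14098 tested genes. The standard error is the size of the log2 fold change divided by the square root of F. The procedure was tested on simulated data. Alternatives were DESeq2 1.42.0, other scalings, no filter, the single-strand column, only the libraries compared, a term for the unmapped share, and leaving out libraries.

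The members and the 51 gene lists were chosen with earlier results of these data known. Named genes are the 15 largest rises and 15 largest falls among called genes with a mean log2 CPM of 3 or more and groups that did not overlap (predicted Gm and Rik genes left out), the 4 lowest-p members per list and the members marked as well known in the lists. Members named because they went against their list, or to give a group's range, were chosen after their values were seen. Some members are counted in their lists but not reported here. Chromosome positions and promoters are from RefSeq, GRCm38.p6, where 13477 tested symbols matched. Leaving out 1 library leaves 2 in its group, with the spread shared over all groups.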

Additional observations from a re-analysis of the deposited data

Results flagged for a closer look

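Reads that STAR called ambiguous, because they overlap more than 1 gene, enter no comparison of the report. Their share was 1.92946% on average in CTNNB1_NFE2L2 (1.92 to 1.96%) and 1.48 to 1.60% in WT, so every CTNNB1_NFE2L2 library lay above every WT library.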

How the results depend on the processing

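No paired analysis was possible because nothing in the labels pairs a library of 1 group with one of another. Against WT, the counts were 426 higher and 182 lower with the term for the unmapped share, and total-count scaling gave 2127 lower. Against CTNNB1_MET that term gave 1632 calls, beside 4954 without it. For each of these the cause was not tested. The term turned the direction of 12 named genes: Atp6v0d2 (-0.62), Ciart (0.055), Cry2 (0.21), Cxcl16 (-0.32), Cyp2e1 (0.43), H2-D1 (-0.28), Hlf (0.29), Irf8 (-0.13), Itgax (-0.38), Psat1 (-0.33), Slc37a4 (0.30) and Tapbp (-0.54). With it 76 of 264 named calls were kept and 176 lost. Leaving out 1 library gave 2993 to 3296 higher and 2707 to 3194 lower genes against WT, and 2259 to 3240 called genes against CTNNB1_NFE2L2_MET, 3721 to 4421 against CTNNB1_MET and 3980 to 4911 against NFE2L2_MET, the lowest of these for CTNNB1_NFE2L2_MET without CTNNB1_NFE2L2 replicate 2. Of the named calls, 246 to 255 were kept without any 1 library of the comparison, 261 with DESeq2 (1 lost), 263 with RLE size factors, 258 with no filter, 253 with total-count scaling, 253 with the single-strand column, 243 with only the libraries compared and 245 without the 3 libraries marked as added, which include WT replicate 3. A fit of only the libraries compared gave 5 lower acute phase genes, 5 lower stellate markers and 2 lower gluconeogenesis genes. At 14084343 to 18551460 counts per library, genes under about 1 CPM rest on few reads.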
